A study of Mus musculus with 12 samples.

Results

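The genes described here are 8 genes of cavity formation in the mouse embryo: the sodium pump subunit gene Atp1b1, the aquaporin genes Aqp3, Aqp8 and Aqp9, the claudin genes Cldn4, Cldn6 and Cldn7, and the tight junction scaffold gene Tjp1. They were chosen by name, with earlier results of these data known, as 8 of the 55401 genes in the count files. The data are RNA-seq libraries of 8-cell embryos after siRNA knockdown (KD) of 2 transcription factors, the orphan nuclear receptor NR5A2 and the zinc-finger factor KLF5. Each library was made from 10 pooled embryos, and there were 2 control libraries, 3 of Nr5a2 KD, 3 of Klf5 KD and 4 of the double knockdown (dKD). Zygotes came from superovulated B6129F1 females of 3 to 5 weeks mated with B6CBAF1 males, and were microinjected at 8 to 9 hours post fertilization (hpf). The control group received non-targeting siRNA at 15 µM, the Nr5a2 KD group Nr5a2 siRNA at 5 µM and the Klf5 KD group Klf5 siRNA at 10 µM. The dKD group received siRNA against both genes, and the sources used here do not name its concentrations separately. All 4 groups also carried H2B-EGFP at 150 ng/µl as a mark of injection, so every group, the control included, had been injected.

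An embryo forms its blastocoel when the outer cells, the future trophectoderm, seal their borders with tight junctions and move salt and water inwards. The sodium pump, an enzyme of alpha and beta subunits, drives sodium across the basolateral membrane, water follows through aquaporins, and claudins and their scaffold proteins keep the fluid from leaking out between cells. The 8-cell stage comes before this cavity appears, when the outer cells start to polarize and the first junction components are laid down.

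Between 6676683 and 12560926 counts per library fell on genes, with a median of 7598177. Nr5a2 was at 210 to 225 CPM (counts-per-million, with libraries scaled by the TMM method) in control libraries, at 24.1 to 38.8 in Nr5a2 KD, at 25.2 to 33.8 in dKD and at 117 to 255 in Klf5 KD. Klf5 ran between 444 and 466 CPM in control. It was at 72.7 to 144 CPM in the Klf5 KD libraries, and dKD libraries held 39.9 to 82.0 CPM, but Nr5a2 KD libraries too held only 109 to 158 CPM, so all 3 knockdown groups had less Klf5 than control. The 7 early embryo markers listed (Dppa3, Dppa5a, Sall4, Tfap2c, Cdh1, Zfp42 and Pou5f1) were detected in every group, but not at even levels. Dppa3 made up most of their sum, at 15777 CPM on average in control and 25292 in Nr5a2 KD. Dppa5a was at 56.7% of control in Nr5a2 KD and 54.9% in dKD (edgeR adjusted p = 0.0484 and 0.0291), and Tfap2c at 49.4% of control in Nr5a2 KD by mean CPM (adjusted p = 0.0246), changes that stayed short of 2-fold in the fit. Between knockdown groups, Dppa5a was called lower in dKD than in Klf5 KD (log2 difference -1.19, adjusted p = 0.00251) and higher in Klf5 KD than in Nr5a2 KD (1.14, adjusted p = 0.00842), as was Tfap2c (1.20, adjusted p = 0.0127). Of 12 markers of the cumulus and granulosa cells that surround the egg, 2 were at 0 in every library, and the 11 other than Amhr2 summed to between 0.707 and 3.41 CPM in any library. Amhr2 itself was at 8.24 to 20.3 CPM. Mitochondrially encoded genes took 13.2% and 12.9% of the counts in control, but only 6.18% in Nr5a2 KD replicate 3, 4.41% in Klf5 KD replicate 1, and 6.75% and 6.17% in dKD replicates 3 and 4, against 8.28% to 12.8% in the other 6 knockdown libraries. These 4 libraries are called those under 7% below. In pooled embryos, fewer cells of a type and less RNA per cell cannot be told apart.

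The order of the 8 genes by level was read on a per-length scale, transcripts-per-million (TPM). In control embryos Aqp9, a channel for water and small solutes such as glycerol, was highest, at 30.0 ± 1.30 TPM (SD, n = 2). Cldn7 followed at 24.8 ± 1.92 and Cldn4 at 20.3 ± 6.78 TPM, and these neighbours overlapped. Below them came Tjp1 at 10.6 ± 0.749, Aqp3 at 7.36 ± 1.11, Cldn6 at 2.93 ± 0.264 and Atp1b1 at 1.82 ± 0.0836 TPM, none of which overlapped its neighbour. Aqp8 was at 0 in both control libraries. In the dKD group Cldn7 led at 106 ± 42.8 TPM (SD, n = 4), above Aqp9 at 44.6 ± 7.67 without overlap, while Cldn6, Tjp1, Cldn4, Atp1b1 and Aqp3 lay between 4.55 and 7.22 TPM on average and each overlapped the next in the order. The Nr5a2 KD group had the same leading genes, Cldn7 at 101 ± 37.1 and Aqp9 at 40.3 ± 9.14 TPM (SD, n = 3), again without overlap. In Klf5 KD the Cldn7 libraries ran from 22.7 to 100.2 TPM and overlapped those of Aqp9, at 25.9 to 35.7 TPM.

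**Figure D1:**
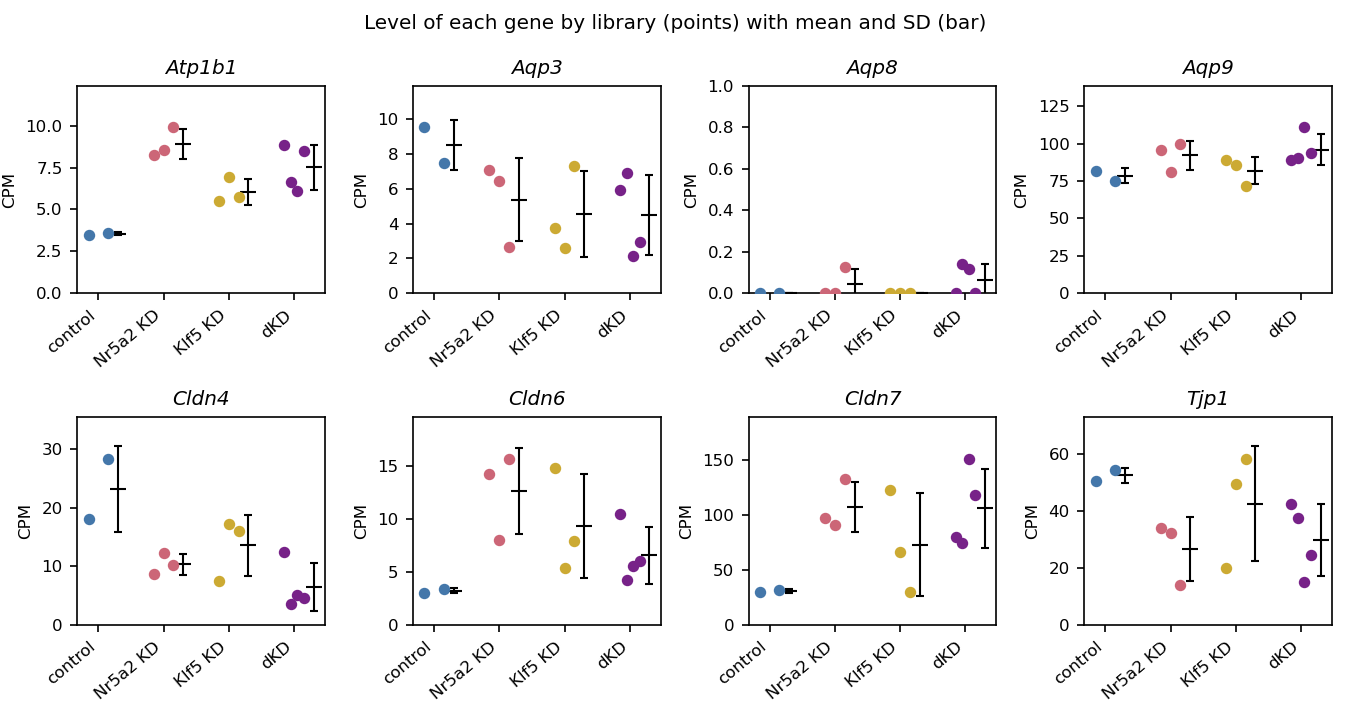
The level of each of the 8 genes in CPM (vertical axes, starting at 0), with a point for every library of control, Nr5a2 KD, Klf5 KD and dKD embryos, in replicate order from left to right, and the group mean with its SD beside them. All Cldn7 points of Nr5a2 KD and dKD lie above both control points, all Cldn4 points of the knockdown groups lie below both, and Aqp8 stays below 1 CPM throughout.

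A gene was called changed when its p from edgeR's quasi-likelihood test, adjusted over all genes tested in that comparison, was under 0.05 and the change was at least 2-fold. By this rule 3 of the 7 testable genes changed in Nr5a2 KD embryos, and all 3 were claudins. Cldn7 and Cldn6 were higher than control and Cldn4 was lower. In dKD embryos Cldn7 was again higher and Cldn4 lower, and in Klf5 KD embryos none of the 7 was called. Among all 13262 genes tested in Nr5a2 KD against control, 3.45% were called higher and 4.42% lower, and among the 13724 tested in dKD against control 3.38% were called higher and 3.85% lower.

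Claudins are the membrane proteins that form the tight junction strands and set which ions pass between cells. Cldn7 (ENSMUSG00000018569, plus strand, chr11:69964779-69967885, GRCm38) is a claudin found widely in epithelia. It was at 29.2 and 31.7 CPM in the control libraries, at 97.3, 90.6 and 133 CPM in Nr5a2 KD, at 122, 66.0 and 29.6 CPM in Klf5 KD, and at 79.8, 74.4, 151 and 117 CPM in dKD. All Nr5a2 KD and dKD libraries were above both controls, while Klf5 KD replicate 3 was level with control and replicate 1 was as high as the other knockdown groups. The log2 fold change against control was 1.84 ± 0.266 (SE, 3.58-fold, edgeR adjusted p = 0.00189) in Nr5a2 KD and 1.84 ± 0.328 (SE, 3.58-fold, edgeR adjusted p = 0.00756) in dKD. In Klf5 KD it was 1.28 ± 0.476 (SE, edgeR adjusted p = 0.551). These values rest on 193 and 237 counts in the controls and on 202 to 1363 counts after knockdown. Leaving out control replicate 1 ended the call in Nr5a2 KD (log2 fold change 1.77, adjusted p = 0.0516), and leaving out either control ended it in dKD (1.77 and 1.91, adjusted p = 0.101 and 0.0909). A fit of all 12 libraries with the replicate number as a block ended both calls (1.75 and 1.67, adjusted p = 0.0635 and 0.0872).

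Cldn7 also differed with the mitochondrial share of the library. The highest Cldn7 library of Nr5a2 KD (133 CPM), of Klf5 KD (122 CPM) and of dKD (151 CPM) were the ones at 6.18%, 4.41% and 6.75% mitochondrial counts, and in Klf5 KD the level went from 122 to 66.0 to 29.6 CPM as the share went from 4.41% to 8.28% to 11.8%. The 3 knockdown libraries closest to control in share were Nr5a2 KD replicate 2 (12.5%) and dKD replicates 1 and 2 (12.8% and 12.6%). They had 90.6, 79.8 and 74.4 CPM against 29.2 and 31.7 in control. The next closest, Klf5 KD replicate 3 at 11.8%, had 29.6 CPM. Both controls had a high share, 13.2% and 12.9%, and the part of the share in the Cldn7 level was not tested. With the 4 libraries under 7% left out, a choice made after seeing the data, Cldn7 remained called in Nr5a2 KD (log2 fold change 1.64, edgeR adjusted p = 0.000446) and in dKD (1.36, adjusted p = 0.00759), while in Klf5 KD its log2 fold change went from 1.28 to 0.64 (adjusted p = 0.721). With the share as a covariate the difference in Klf5 KD turned to -0.35.

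**Figure D2:**
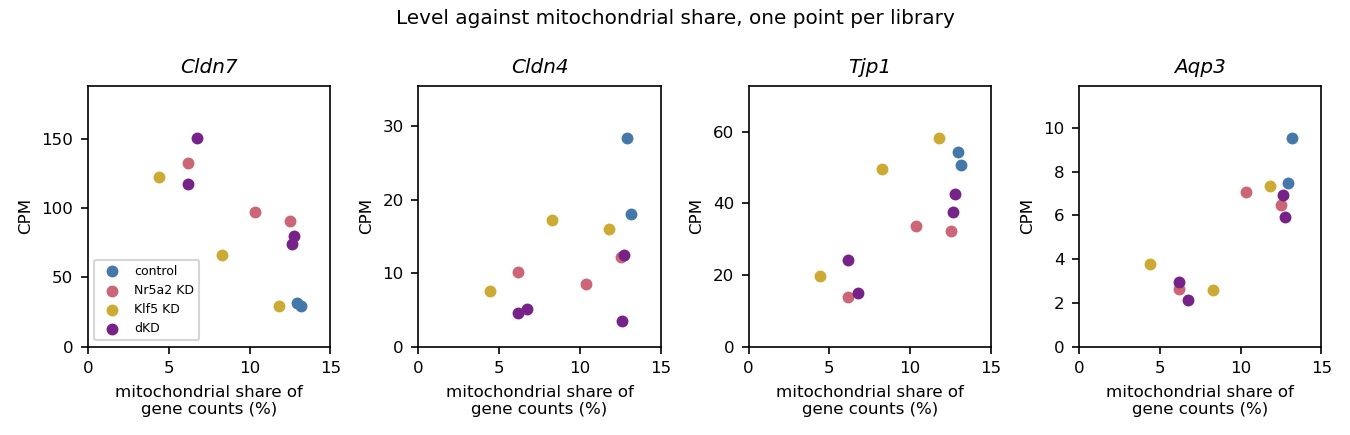
CPM of Cldn7, Cldn4, Tjp1 and Aqp3 (vertical axes, starting at 0) against the percent of counts on mitochondrially encoded genes (horizontal axes), with a point per library coloured by group. The 4 libraries under 7% hold Cldn7 levels of 117 to 151 CPM and Tjp1 levels of 13.8 to 24.3 CPM, and among the libraries over 12% the control points lie lowest for Cldn7 and highest for Tjp1 and Cldn4.

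Cldn6 (ENSMUSG00000023906, plus strand, chr17:23679249-23682446, GRCm38) is a claudin typical of embryonic epithelia and of undifferentiated stem cells. Its level was low, at 3.03 and 3.35 CPM in control, 14.2, 7.97 and 15.7 CPM in Nr5a2 KD, 14.8, 5.30 and 7.91 CPM in Klf5 KD, and 10.5, 4.24, 5.54 and 6.01 CPM in dKD. Every knockdown library was above both controls, with Nr5a2 KD replicates 1 and 3 and Klf5 KD replicate 1 the highest. The log2 fold change against control was 2.01 ± 0.432 (SE, 4.03-fold, edgeR adjusted p = 0.0145) in Nr5a2 KD, the largest of the 7 genes in that comparison. It was 1.08 ± 0.465 (SE, adjusted p = 0.176) in dKD and 1.57 ± 0.513 (SE, adjusted p = 0.512) in Klf5 KD, neither of them called. The control values rest on only 20 and 25 counts. The Nr5a2 KD call ended when either control was left out (1.93 and 2.09, adjusted p = 0.126 and 0.111) or when the mitochondrial share was added as a covariate (1.49, adjusted p = 0.0850), but stood with Nr5a2 KD replicate 3, the library under 7%, left out (1.81, adjusted p = 0.0225). In dKD Cldn6 passed the rule once libraries were scaled by the ERCC spike-ins (1.86, adjusted p = 0.0305), a scaling that puts the median of all genes at 0.84 in that comparison.

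Cldn4 (ENSMUSG00000047501, minus strand, chr5:134945119-134946934, GRCm38) is a claudin encoded by 1 exon that seals epithelia against ions. It went the other way. Control libraries held 18.0 and 28.4 CPM, Nr5a2 KD 8.59, 12.2 and 10.1 CPM, Klf5 KD 7.54, 17.2 and 16.0 CPM, and dKD 12.5, 3.54, 5.07 and 4.59 CPM. All knockdown libraries were below both controls, although Klf5 KD replicates 2 and 3 came close to the lower control, and 3 of the 4 dKD libraries were the lowest of all. The log2 fold change against control was -1.14 ± 0.320 (SE, a level of 0.453 times control, edgeR adjusted p = 0.0454) in Nr5a2 KD and -1.81 ± 0.444 (SE, 0.284 times control, edgeR adjusted p = 0.0287) in dKD. In Klf5 KD it was -0.78 ± 0.387 (SE, adjusted p = 0.598).

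The Cldn4 calls were lost in more of the alternative fits than those of Cldn7 and Cldn6. In Nr5a2 KD the call ended when control replicate 1 (log2 fold change -1.44, adjusted p = 0.0899), control replicate 2 (-0.77, adjusted p = 0.439) or Nr5a2 KD replicate 1 (-1.01, adjusted p = 0.125) was left out. In dKD it ended without control replicate 1 (-2.11, adjusted p = 0.0917), control replicate 2 (-1.44, adjusted p = 0.271), dKD replicate 3 (-1.72, adjusted p = 0.0574) or dKD replicate 4 (-1.68, adjusted p = 0.0726), and without both dKD libraries under 7% mitochondrial share (-1.50, adjusted p = 0.124). Scaled by the ERCC spike-ins, Cldn4 was at -0.36 (adjusted p = 0.607) in Nr5a2 KD and at -1.04 (adjusted p = 0.110) in dKD, where the median of all genes was at 0.82 and 0.84. Over the 12 libraries, Pearson's r of log2 CPM with the mitochondrial share was 0.45 for Cldn4 and -0.71 for Cldn7. In Klf5 KD the lowest Cldn4 level, 7.54 CPM, was in replicate 1, at 4.41%. In dKD, replicates 1 and 2, at 12.8% and 12.6%, had the highest and the lowest level of that group, 12.5 and 3.54 CPM. Klf5 was at 82.0 CPM in dKD replicate 1, the highest of that group, and at 39.9 to 59.8 CPM in the other dKD libraries. Whether the remaining Klf5 had a part in the Cldn4 level was not tested.

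Because Cldn7 and Cldn4 moved apart, their ratio within a library, which no scaling of libraries can change, was also taken, a choice made after their values were seen and given with no test. Per length, there were 1.51 and 1.04 Cldn7 transcripts for each Cldn4 transcript in the control libraries. The ratio was 10.6, 6.90 and 12.2 in Nr5a2 KD and 5.96, 19.6, 27.7 and 23.8 in dKD. In Klf5 KD it was 15.1, 3.58 and 1.73, so that replicate 3 of Klf5 KD was close to control. Cldn6 transcripts went from 0.177 and 0.124 for each Cldn4 transcript in control to between 0.688 and 1.75 in Nr5a2 KD and between 0.885 and 1.38 in dKD. The 3 claudins summed to 41.7 and 54.3 TPM in control, 99.2, 99.4 and 175 TPM in Nr5a2 KD, 121, 80.4 and 42.8 TPM in Klf5 KD, and 93.6, 76.7, 167 and 141 TPM in dKD.

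The promoters of these 3 claudins are printed because the knocked-down factors bind DNA and the genes moved in opposite directions. The sequences are RefSeq's on GRCm38.p6, read 5′ to 3′ on the gene's strand, and end at the base before the start site for Cldn7 and Cldn4 and at the base before the annotated gene for Cldn6. The monomer motif of NR5A2, spelled AAGGNCA, and a KLF motif, spelled GGGNGNGG, were searched on both strands, and capitals mark a match to either.
Cldn7 promoter (chr11:69964529-69964778, plus strand): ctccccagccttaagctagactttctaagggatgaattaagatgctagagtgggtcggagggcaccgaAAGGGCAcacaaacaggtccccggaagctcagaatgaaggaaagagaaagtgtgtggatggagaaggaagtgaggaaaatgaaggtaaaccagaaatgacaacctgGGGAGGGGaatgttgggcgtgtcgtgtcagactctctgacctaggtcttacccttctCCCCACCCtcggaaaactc
Cldn6 promoter (chr17:23679115-23679248, plus strand): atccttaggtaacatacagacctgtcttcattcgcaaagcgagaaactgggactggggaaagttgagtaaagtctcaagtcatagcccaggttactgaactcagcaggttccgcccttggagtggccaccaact
Cldn4 promoter (chr5:134946935-134947184, minus strand): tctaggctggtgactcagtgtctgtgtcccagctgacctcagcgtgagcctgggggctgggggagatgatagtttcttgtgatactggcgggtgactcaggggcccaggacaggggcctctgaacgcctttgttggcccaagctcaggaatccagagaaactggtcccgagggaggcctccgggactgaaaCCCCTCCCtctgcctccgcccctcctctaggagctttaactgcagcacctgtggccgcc

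In the Cldn7 promoter the NR5A2 motif began 182 bases before the start site and KLF motifs 76 and 19 bases before it. The Cldn4 promoter held 1 KLF motif, 59 bases before the start site, and no NR5A2 motif. Over the whole RefSeq window of 300 bases, 250 before and 50 from the start site on, Cldn6 held neither. All 8 genes matched a window in the table, some with more than 1 start site, for 10 windows in all. Only the Cldn7 window above had the NR5A2 motif, which 20.28% of the 32851 windows of the table contain, while KLF motifs, present in 49.47% of all windows, were in those of Atp1b1 (3 matches), Aqp3 (2), Aqp9 (1), Cldn4 (1), Cldn7 (2) and Tjp1 (5). The GATA motif AGATAA, at 11.18% of windows, was in none of the 10. The TEAD motif GGAATG, at 14.66%, was found in the windows of Aqp8, Cldn6 and Cldn7, and the TFAP2 motif GCCNNNGGC, at 16.59%, in that of Tjp1. Matches of some KLF motifs in the Tjp1 window overlapped each other. A match here is only a string of letters in a window, and 6 of the 10 start sites, in Tjp1, Aqp8, Aqp9, Cldn6 and the second window of Cldn7, lie inside the gene bounds of the count files.

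Atp1b1 (ENSMUSG00000026576, minus strand, chr1:164437109-164458355, GRCm38) encodes a beta subunit, which the catalytic alpha subunit of the sodium pump needs to reach the membrane. It was at 3.48 and 3.61 CPM in control, 8.23, 8.52 and 9.90 CPM in Nr5a2 KD, 5.47, 6.95 and 5.71 CPM in Klf5 KD, and 8.83, 6.65, 6.13 and 8.48 CPM in dKD. All 10 knockdown libraries were above both controls. The log2 fold change was 1.35 ± 0.406 (SE, edgeR adjusted p = 0.0597) in Nr5a2 KD, 1.12 ± 0.382 (SE, adjusted p = 0.0954) in dKD and 0.77 ± 0.439 (SE, adjusted p = 0.633) in Klf5 KD, and none of these was called. In Nr5a2 KD it passed the rule when all 12 libraries shared a fit (1.32, adjusted p = 0.0381) or when libraries were scaled by the ERCC spike-ins (2.16, adjusted p = 0.0381). Exons of Atp1b1 share 575 bases with the oppositely transcribed gene Nme7, and without strand in the counting reads there cannot be told apart. Nme7 itself was at 9.02 ± 1.63 CPM (SD, n = 2) in control and 13.5 ± 2.07 CPM (SD, n = 3) in Nr5a2 KD, a log2 fold change of 0.61 that was not called.

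Of the water channels, Aqp8 was at or near 0 throughout. This aquaporin (ENSMUSG00000030762, plus strand, chr7:123462291-123468004, GRCm38) conducts water and ammonia. No count fell on it in 9 of the 12 libraries, and 1 count each in Nr5a2 KD replicate 3 and dKD replicates 2 and 3. A count of 0 allows up to 3 counts, which is 0.269 to 0.454 CPM at the depth of the 9 libraries, counting error only, and the gene entered no test.

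Aqp9 (ENSMUSG00000032204, minus strand, chr9:71110659-71168682, GRCm38) differed least from control of the 7 tested genes in all 3 knockdown groups under TMM scaling, though not under ERCC scaling. It was at 82.0 and 75.2 CPM in control, 95.8, 81.1 and 99.5 CPM in Nr5a2 KD, 89.0, 85.5 and 71.5 CPM in Klf5 KD, and 89.0, 90.1, 111 and 94.0 CPM in dKD. Only the dKD libraries were all above both controls. The highest Aqp9 library of each knockdown group was one under 7% mitochondrial share. Against control Aqp9 differed by 0.26 ± 0.223 (log2, SE, edgeR adjusted p = 0.536) in Nr5a2 KD, 0.33 ± 0.209 (SE, adjusted p = 0.363) in dKD and 0.07 ± 0.268 (SE, adjusted p = 0.963) in Klf5 KD. Under ERCC scaling the dKD value passed the rule, at 1.13 (adjusted p = 0.0431), and with the libraries under 7% left out the values were 0.19, 0.21 and -0.0134 in Nr5a2 KD, dKD and Klf5 KD.

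Aqp3 (ENSMUSG00000028435, minus strand, chr4:41092722-41098183, GRCm38) encodes a channel for water and glycerol of basolateral membranes. Its libraries were at 9.53 and 7.50 CPM in control, 7.06, 6.46 and 2.63 CPM in Nr5a2 KD, 3.77, 2.59 and 7.32 CPM in Klf5 KD, and 5.93, 6.93, 2.12 and 2.94 CPM in dKD. On this scale every knockdown library was below both controls, but several by little. Differences from control were -0.64 ± 0.458 (log2, SE, edgeR adjusted p = 0.440) in Nr5a2 KD, -0.90 ± 0.473 (SE, adjusted p = 0.267) in dKD and -0.91 ± 0.474 (SE, adjusted p = 0.617) in Klf5 KD, with no call. The 4 libraries under 7% mitochondrial share and Klf5 KD replicate 2, at 8.28%, held 2.12 to 3.77 CPM, and the other 5 knockdown libraries, at 10.4% or more, held 5.93 to 7.32 CPM. Leaving the 4 libraries out gave a log2 fold change of -0.31 in Nr5a2 KD, -0.38 in dKD and -0.81 in Klf5 KD.

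Tjp1 (ENSMUSG00000030516, minus strand, chr7:65296165-65527781, GRCm38) encodes ZO-1, the scaffold that ties claudins and occludin to actin. It was at 50.5 and 54.3 CPM in control, 33.8, 32.2 and 13.8 CPM in Nr5a2 KD, 19.7, 49.5 and 58.2 CPM in Klf5 KD, and 42.5, 37.5, 14.8 and 24.3 CPM in dKD. Nr5a2 KD and dKD libraries were all below control and Klf5 KD libraries lay on both sides of it. Tjp1 differed from control by -0.96 ± 0.327 (log2, SE, edgeR adjusted p = 0.0919) in Nr5a2 KD, -0.79 ± 0.342 (SE, adjusted p = 0.179) in dKD and -0.31 ± 0.380 (SE, adjusted p = 0.854) in Klf5 KD, none of them called. The lowest Tjp1 library of each knockdown group was one of those under 7% mitochondrial share. With these left out the difference was -0.65 (adjusted p = 0.0710) in Nr5a2 KD, -0.37 (adjusted p = 0.331) in dKD and 0.02 (adjusted p = 0.997) in Klf5 KD.

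**Figure D3:**
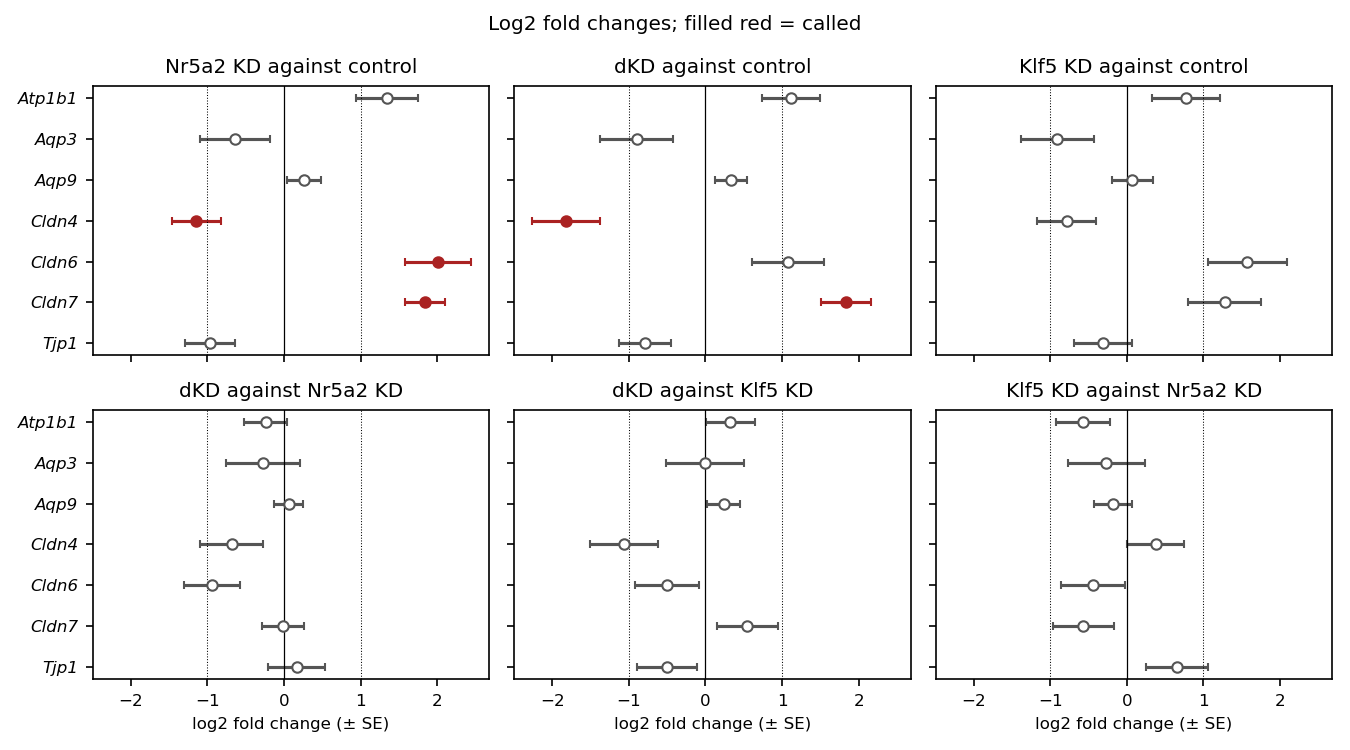
Log2 fold changes (horizontal axes, bars are 1 SE) of the 7 tested genes in 6 comparisons, with called changes filled in red and dotted lines at 2-fold. Red points are Cldn4, Cldn6 and Cldn7 in Nr5a2 KD against control and Cldn4 and Cldn7 in dKD against control, and none appear in the other 4 panels.

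Counting libraries rather than calls, 3 of the 7 tested genes had every Nr5a2 KD library above both controls and 3 had every one below, against 19.9% and 22.5% of all genes tested. In dKD 4 were above and 3 below, against 17% and 19.2% of all genes. In Klf5 KD 2 were above and 2 below, against 12.6% and 14.4%. These counts depend on the scale near their edges. With total counts or TPM, Aqp9 also lay above control in Nr5a2 KD, for 4 genes, and Aqp3 overlapped control in dKD, which left 2 below. In TPM, Cldn4 also overlapped control in Klf5 KD, which left 1 below. The median log2 fold change of the 7 genes was 0.26 in Nr5a2 KD, 0.33 in dKD and 0.07 in Klf5 KD, and that of all tested genes 0.04, 0.05 and 0.00. The 3 comparisons share the same 2 control libraries.

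In Klf5 KD against control 0 of the 7 genes were called by edgeR or by DESeq2, where 0% of all 12838 genes were called by edgeR. At an unadjusted p under 0.05 there were 2, Cldn6 (unadjusted p = 0.00934 and adjusted p = 0.512 by edgeR) and Cldn7 (unadjusted p = 0.0191 and adjusted p = 0.551 by edgeR), against 8.47% of all genes. Klf5 itself, at 24.5% of control, had an adjusted p of 0.0996 in this comparison. Cldn7 was called in Klf5 KD with no filter on low counts (1.34, adjusted p = 0.0214) and with the replicate number as a block (edgeR adjusted p = 0.00465). Control numbers mark no pairing with the knockdown libraries.

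The knockdown groups were also compared with each other. Between dKD and Nr5a2 KD 0 of the 7 genes were called by edgeR or DESeq2, and 0% of all 13017 genes were called by edgeR. The differences of Cldn7 and Aqp9 were -0.01 ± 0.273 and 0.06 ± 0.189 (log2, SE). The largest differences were those of Cldn6, -0.94 ± 0.361 (SE, unadjusted p = 0.0228 and adjusted p = 0.999 by edgeR), and Cldn4, -0.68 ± 0.412 (SE, adjusted p = 0.999). Cldn6 was the 1 gene at an unadjusted p under 0.05, against 3.43% of all genes. Klf5 itself, whose siRNA sets these 2 groups apart, was not called here either (-1.31 ± 0.260, SE, edgeR adjusted p = 0.999).

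Between dKD and Klf5 KD 0 of the 7 genes were called by edgeR or DESeq2, although 5.38% of all 12904 genes were called higher and 5.41% lower in dKD. Cldn4 was the 1 gene at an unadjusted p under 0.05, against 26.6% of all genes, with a log2 difference of -1.06 ± 0.444 (SE, edgeR adjusted p = 0.142). It passed the rule without dKD replicate 1 (-1.61, adjusted p = 0.0195). Between Klf5 KD and Nr5a2 KD 0 of the 7 genes were called by either tool and 0 had an unadjusted p under 0.05, against 5.83% of all 12668 genes called higher, 5.6% called lower and 25.9% at that unadjusted p. Here Cldn7 differed by -0.57 ± 0.395 (SE, edgeR adjusted p = 0.411) and passed the rule without Klf5 KD replicate 1 (-1.17, adjusted p = 0.0451), the library with the lowest mitochondrial share.

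Whether both knockdowns together did more or less than the sum of each on the log2 scale was tested with an interaction term over all 12 libraries. None of the 7 genes was called by edgeR or DESeq2, and 0% of all 14830 genes were called by edgeR. At an unadjusted p under 0.05 there were 3 of the 7 genes, against 4.82% of all genes, all with a negative term, so that dKD lay below the sum of both single changes. The term was -2.50 for Cldn6 (unadjusted p = 0.00122 and adjusted p = 0.889 by edgeR), -1.27 for Cldn7 (unadjusted p = 0.0386 and adjusted p = 0.950 by edgeR) and -1.01 for Atp1b1 (unadjusted p = 0.0418 and adjusted p = 0.950 by edgeR). Over 9 other settings it ran from -3.27 to -1.63 for Cldn6, -2.06 to -0.36 for Cldn7 and -1.68 to -0.92 for Atp1b1. The term includes the 2 control libraries, where Cldn6 had 20 and 25 counts and Atp1b1 23 and 27. Nr5a2 KD libraries also held only 30.6% of the control level of Klf5, so both single knockdowns shared a fall in Klf5.

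The other genes of the same machinery were read from lists of its parts. In Nr5a2 KD against control, 3.45% of all genes tested were called higher and 4.42% lower. Of 14 sodium pump genes, 6 could be tested against control in Nr5a2 KD and in dKD. Fxyd4, a small regulator of the pump, was the 1 called gene of that list in Nr5a2 KD, higher than control by 1.21 ± 0.311 (log2, SE, edgeR adjusted p = 0.0327), from 25.3 and 33.6 CPM in control to 76.9, 82.7 and 41.3 CPM. In Klf5 KD Fxyd4 was at 9.60, 7.78 and 17.6 CPM, below both controls, and in dKD at 43.5, 54.0, 42.1 and 32.0 CPM. It differed between dKD and Klf5 KD by 1.90 ± 0.323 (SE, edgeR adjusted p = 0.00254) and between Klf5 KD and Nr5a2 KD by -2.55 ± 0.368 (SE, edgeR adjusted p = 0.000996), and both calls were kept whichever library was left out. The Nr5a2 KD call against control was kept only without Nr5a2 KD replicate 3, and its adjusted p reached 0.279 without control replicate 1. Atp1b3, another beta subunit, was by far more abundant per length than Atp1b1, at 143 against 1.82 TPM in control. It was at 216 ± 23.0 CPM (SD, n = 2) in control and 205 ± 34.4 CPM (SD, n = 3) in Nr5a2 KD, a log2 fold change of -0.05 ± 0.233 (SE, edgeR adjusted p = 0.937).

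Of 12 aquaporin genes, 4 were tested in Nr5a2 KD and dKD against control, and none was called. Aqp11, an intracellular aquaporin, was at 34.2 and 42.8 CPM in control, highest in the library under 7% in Nr5a2 KD (108 CPM) and in Klf5 KD (85.8 CPM), and at 62.6, 79.6, 67.4 and 82.3 CPM in dKD, and its difference there, 0.96 ± 0.233 (log2, SE, edgeR adjusted p = 0.0275), passed the p but not the 2-fold limit. Of 25 claudin genes, 6 were tested in Nr5a2 KD and 5 in dKD. The calls were those of Cldn4, Cldn6 and Cldn7 in Nr5a2 KD, where 3.45% of all genes were called higher and 4.42% lower. In dKD they were those of Cldn4, Cldn7 and Cldn12, where 3.38% of all genes were called higher and 3.85% lower. Cldn12 was at 5.45 and 2.14 CPM in control and at 13.4, 8.77, 9.42 and 14.1 CPM in dKD, a log2 fold change of 1.64 ± 0.441 (SE, edgeR adjusted p = 0.0426). Of the fits with a library left out, the call was kept only without dKD replicate 2, and the log2 fold change was 2.44 without control replicate 1 and 1.11 without control replicate 2 (adjusted p = 0.0715 and 0.314). It stood in 8 of 11 other settings. Cldn12 was also called higher in dKD than in Klf5 KD, by 1.15 ± 0.344 (SE, edgeR adjusted p = 0.0427), a call that reached an adjusted p of 0.134 when a library was left out.

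Among all genes tested against control, 3.38% were called higher and 3.85% lower in dKD, and 3.45% and 4.42% in Nr5a2 KD. Of 21 tight junction genes, 18 were tested. Ocln, which encodes the strand protein occludin, was the 1 gene of this list called against control, lower in dKD (log2 fold change -1.03 ± 0.266, SE, edgeR adjusted p = 0.0364). Its libraries were at 22.1 and 28.0 CPM in control, 10.1, 19.9 and 6.89 CPM in Nr5a2 KD, 10.4, 16.7 and 27.0 CPM in Klf5 KD, and 9.19 to 13.1 CPM over the 4 dKD libraries. The lowest Ocln library of each knockdown group was one under 7% mitochondrial share, and in Klf5 KD the level followed the share of its 3 libraries upwards. Its log2 fold change in Nr5a2 KD was -1.005 ± 0.392 (SE, edgeR adjusted p = 0.137), which is not a call, and dKD and Nr5a2 KD differed by -0.03 ± 0.344 (SE, edgeR adjusted p = 0.999). The dKD call ended without either control (adjusted p = 0.128 and 0.306) and without dKD replicate 3 or 4 (adjusted p = 0.0798 and 0.0730), the libraries under 7%, and without both of them (-0.92, adjusted p = 0.0891). It stood in only 4 of 11 other settings, over which the log2 fold change ran from -1.06 to -0.24, the last under ERCC scaling. Cxadr, a junction adhesion receptor, passed the p in Nr5a2 KD (-0.75 ± 0.214, SE, edgeR adjusted p = 0.0485) and in dKD (-0.85 ± 0.220, SE, edgeR adjusted p = 0.0366) but not the 2-fold limit.

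Between knockdown groups the tight junction list gave 3 further calls, in comparisons where 5.38% of all genes were called higher and 5.41% lower (dKD against Klf5 KD) and where 5.83% and 5.6% were (Klf5 KD against Nr5a2 KD). Cgn, for the cytoplasmic plaque protein cingulin, was lower in dKD than in Klf5 KD (log2 difference -2.04 ± 0.579, SE, edgeR adjusted p = 0.0344). It was at 0.378 to 1.84 CPM in dKD, on 3 to 13 counts per library, and at 3.18 to 5.56 CPM in Klf5 KD. Control libraries held 3.88 and 5.45 CPM of Cgn, and dKD differed from them by -2.23 ± 0.651 (log2, SE, edgeR adjusted p = 0.0579), not a call. In Klf5 KD against Nr5a2 KD, the scaffold gene Magi3 was lower (-2.54 ± 0.697, SE, edgeR adjusted p = 0.0282) on 2 to 4 counts per Klf5 KD library. Marveld2, for the protein tricellulin of the corners where cells meet, was higher (2.02 ± 0.540, SE, edgeR adjusted p = 0.0252), on 6 to 15 counts per Nr5a2 KD library. By mean CPM, Magi3 was at 21.6% of control in Klf5 KD and 123% in Nr5a2 KD, and Marveld2 at 113% and 27.7%. Marveld2 was not called in Nr5a2 KD against control (-1.82 ± 0.579, SE, edgeR adjusted p = 0.0737). Cgn, Magi3 and Marveld2 each passed the filter on low counts only through the group where it was high. Over the libraries left out in turn, the adjusted p of these 3 calls reached 0.151 for Cgn, 0.103 for Magi3 and 0.117 for Marveld2. With the libraries under 7% mitochondrial share left out it was 0.319, 0.0907 and 0.118. Of 9 ion and solute transport genes 2 or 3 were tested in each comparison, with 0 called by edgeR. Of 7 desmosome genes 1 to 4 were tested and Jup, which encodes plakoglobin, was the 1 call, higher in dKD than in Klf5 KD (1.89 ± 0.485, SE, edgeR adjusted p = 0.0215), with an adjusted p of up to 0.0734 when a library was left out.

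**Figure D4:**
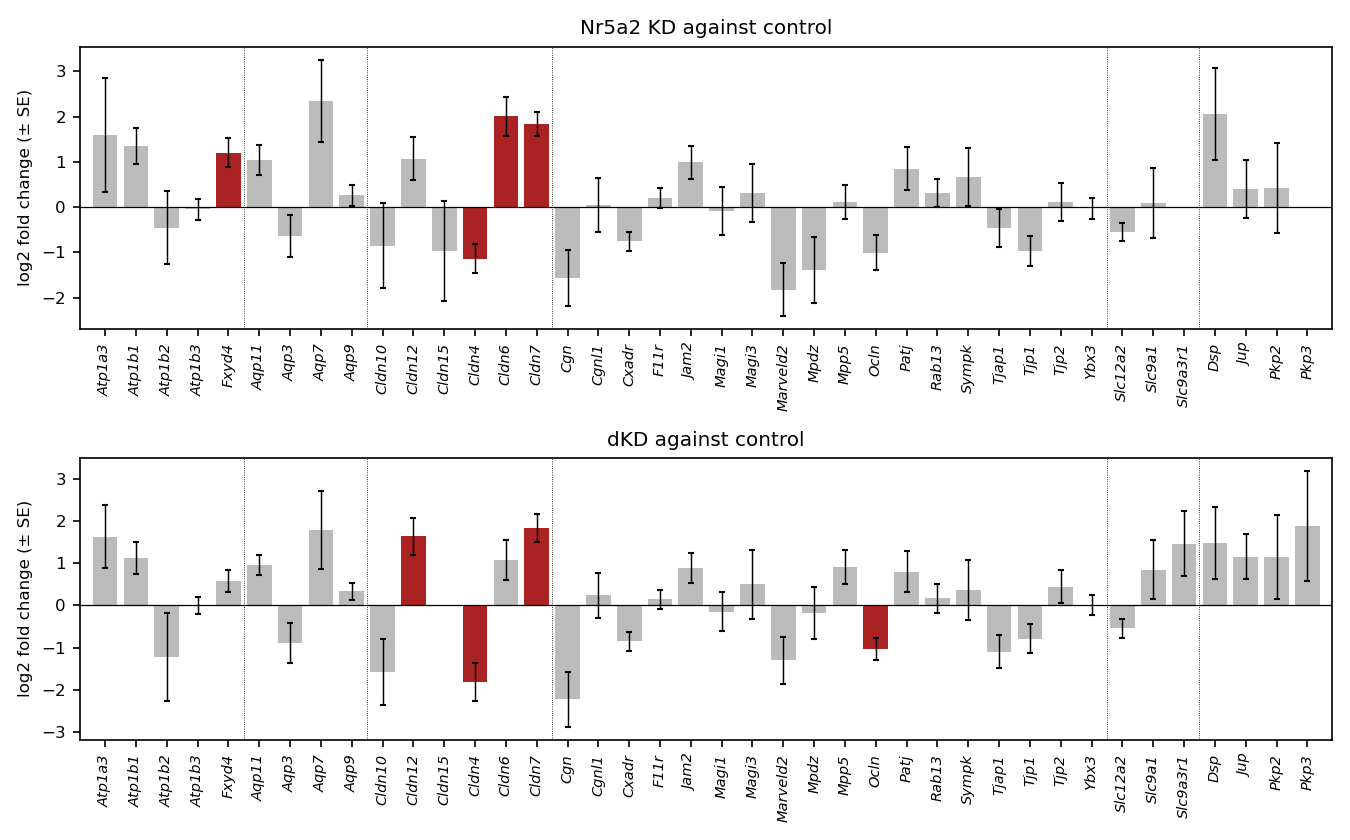
Log2 fold changes against control (vertical axes, bars start at 0, error bars are 1 SE) of tested genes of the lists, in the order sodium pump, aquaporins, claudins, tight junction, ion and solute transport and desmosome, separated by dotted lines, for Nr5a2 KD (top) and dKD (bottom). Red marks called genes, a missing bar means that the gene was not tested in that comparison, and the red bars are Fxyd4, Cldn4, Cldn6 and Cldn7 at the top and Cldn12, Cldn4, Cldn7 and Ocln at the bottom.

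The genes most like each member across the 12 libraries were named by Pearson's r of log2 CPM, a description over libraries that share groups and depth. Cldn7 ran closest to Urod (r = 0.97), Adm (r = 0.95) and Lap3 (r = 0.95), and Cldn4 to Dmtf1 (r = 0.95). Tjp1 ran closest to B3gnt9 (r = 0.99) and Atp1b1 to Arfgap2 (r = 0.93). Aqp9 was most like Ppid, Pcna and Mcm3, at r = 0.93, 0.93 and 0.92, and Cldn6 most like Psmb6, at r = 0.87. The 3 genes closest to Aqp3 were pseudogenes of the ribosomal protein gene Rps15a (r = 0.96 to 0.97), whose reads cannot be told apart from near-identical copies.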

How the data were processed

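Polyadenylated RNA of 12 pools of 10 embryos was made into SMART-Seq v4 and Nextera XT libraries with ERCC spike-ins and sequenced as pairs, on a NovaSeq by the paper's methods and on a NovaSeq or an AVITI by the labels. Per the labels and methods, the authors trimmed reads with Trim Galore 0.6.2, aligned them to GRCm38 with STAR and counted pairs over Ensembl exons with featureCounts 2.0.1, unstranded, with fractional assignment of overlaps. The deposited values are therefore estimated counts, and in each library 7.30% to 8.66% of all rows for genes held a fraction. These were rounded here. Genes were filtered with filterByExpr (minimum count 10, total 15) and tested in pairs of groups with edgeR 4.0.16 (quasi-likelihood, TMM factors, R 4.3.3, Benjamini-Hochberg adjustment over all genes tested), after a check on simulated data. CPM used TMM factors over 12 libraries, and TPM used the files' exon lengths.

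The members and gene lists were chosen with earlier results of these data known. List genes were named where called, and genes of like pattern as the 3 with the highest r among genes averaging 50 counts or more. Atp1b3, Aqp11 and Cxadr were added by name once their values were known. Alternatives were DESeq2 1.42.0, other scalings, no filter, values not rounded, fits of all 12 libraries, the mitochondrial share as a covariate, the replicate number as a block and each library left out. Same-numbered libraries deviated together from their group means only between Nr5a2 KD and dKD (correlations 0.13, 0.22 and 0.25). Differently numbered libraries low in mitochondrial counts did so too. Nr5a2 KD replicate 3 correlated with dKD replicate 4 at 0.26. Klf5 KD replicate 1 correlated with Nr5a2 KD replicate 3 at 0.19 and with dKD replicates 3 and 4 at 0.18 and 0.20. Whether the numbers pair Nr5a2 KD with dKD is therefore not settled. The blocked fit of dKD against Nr5a2 KD called 0 members, as did the unblocked one. Nothing states that libraries of a group came from separate injection days, so p-values measure the spread between these samples. Cldn25, of the claudin list, was not matched by symbol. A listed gene is not reported here.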

Additional observations from a re-analysis of the deposited data

Results flagged for a closer look

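Cldn4 in dKD replicate 1 stood apart from the other dKD libraries, at 12.5 CPM against 3.54 to 5.07 CPM. Its gap to the next library was a share of the group's range just past Dixon's critical value for 4 samples. Chance alone marks about 1 in 20 groups of that size, and 8 genes were looked at in this group. Without this library the log2 fold change of Cldn4 was -2.35 against control and -1.61 against Klf5 KD. Klf5 was also highest in this library among the dKD libraries, at 82.0 CPM, and its mitochondrial share was 12.8%. The part of either in the result was not tested.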

How the results depend on the processing

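Scaling by ERCC spike-ins in place of TMM factors moved the median gene, on the log2 scale, to 0.82 (Nr5a2 KD against control), 0.84 (dKD against control), 0.66 (Klf5 KD against control), 0.19 (dKD against Klf5 KD), -0.15 (Klf5 KD against Nr5a2 KD) and -0.62 (interaction). Total counts put it at 0.15, 0.20, -0.04, 0.24, -0.19 and 0.09. Against these shifts, the claudin calls in Nr5a2 KD and dKD kept their direction under every alternative run, but not their number. In Nr5a2 KD the 1 call lower, Cldn4, became 0 under total counts, ERCC scaling, the fit of all 12 libraries with and without the replicate block, and the mitochondrial covariate, and the 2 calls higher became 1 under that blocked fit (without Cldn7) and the covariate (without Cldn6), and 3 with Atp1b1 under ERCC scaling and the unblocked fit of all 12 libraries. In dKD the 1 call lower, Cldn4, became 0 under ERCC scaling, the blocked fit of all 12 libraries, the covariate and, chosen after seeing the data, without the libraries of low mitochondrial share. The 1 call higher there became 4 under ERCC scaling (Atp1b1, Aqp9, Cldn6 and Cldn7) and 0 under the blocked fit of all 12 libraries. From 0, calls rose to 1 higher in Klf5 KD (Cldn7) with no filter and with the replicate block (1.58, adjusted p = 0.00465), to 1 lower between dKD and Klf5 KD (Cldn4) with no filter and with the covariate, and to 1 lower between Klf5 KD and Nr5a2 KD (Cldn7) with the covariate. The block changed no other call of the 7 genes. Control numbers mark no pairing with the knockdown libraries (correlations -0.03 to 0.05), so that block only shares a number.

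With a library left out, calls ran from 0 to 1 lower and 0 to 2 higher in Nr5a2 KD, from 0 to 1 lower and 0 to 1 higher in dKD, and from 0 to 1 lower between dKD and Klf5 KD and likewise between Klf5 KD and Nr5a2 KD. Total counts moved the control levels of Atp1b1 and Tjp1 to 3.35 and 49.5 CPM. None of the values that changed sign was called under either setting. In Klf5 KD against control, Aqp9 went to -0.18 with the covariate and -0.0134 without the low libraries (-0.0134 to 0.17 over libraries left out), Cldn7 to -0.35 with the covariate, and Tjp1 to 0.27 under ERCC scaling, 0.57 with the covariate and 0.0228 without the low libraries (-0.60 to 0.0228). In dKD against Nr5a2 KD, Cldn7 went to 0.0232 under total counts and 0.0026 with no filter (-0.24 to 0.19), Aqp9 ran from -0.0224 to 0.13 and Tjp1 from -0.14 to 0.38 over libraries left out. In dKD against Klf5 KD, Aqp3 went to 0.21 under total counts, 0.17 under ERCC scaling, 0.16 with the block, 0.0091 with the blocked fit of all 12 libraries and 0.40 without the low libraries (-0.30 to 0.46), and Cldn6 to 0.18 without the low libraries (-0.82 to 0.0336). In Klf5 KD against Nr5a2 KD, Aqp3 went to 0.0172 with the covariate (-0.77 to 0.0251). In the interaction, Aqp3 went to -0.23 with the covariate, Aqp9 to 0.0852 under total counts, 0.0288 with the block, 0.18 with the covariate and 0.0192 without the low libraries (-0.14 to 0.0619), Cldn4 to -0.54 under ERCC scaling and -0.39 with the covariate (-0.44 to 0.39), and Tjp1 to -0.0214 and -0.30 under the same. The cause was not tested. Control rests on 2 libraries, and Cldn6 on 20 and 25 counts there.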
